A study of Mus musculus with 8 samples.

Results

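This section describes 30 genes of the p53 pathway, the regulators of p53 and the targets it switches on, in endothelial cells of the embryonic mouse brain that carry 1 or 2 mutant alleles of Flvcr2, a membrane transporter gene. The 30 genes were listed by name, and each was found under its own symbol among the 24421 rows of the deposited count table. RNA was sequenced from 8 libraries of brain endothelial cells taken at embryonic stage E14.5 from C57Bl6 mice, 4 labelled heterozygous and 4 labelled knock out for Flvcr2. Cells of both genotypes were sorted for GFP, which the mutated Flvcr2 gene expresses, and for CD31, a surface protein of endothelial cells, so the heterozygous controls also carried a mutant allele. Each library was made from 2000 to 5000 cells, and the labels do not say whether libraries came from separate embryos. P-values therefore reflect only how much these 8 libraries vary, and some of that variation may be technical.

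The protein p53, encoded by Trp53, is a transcription factor held at low levels by the ubiquitin ligase Mdm2, so its activity is set mainly through protein stability and modification and not through its own transcript. Under stress, p53 binds paired copies of a short DNA sequence near its target genes, which encode proteins that stop the cell cycle, promote cell death, repair DNA or, as with Mdm2 itself, switch p53 off again. The members are described in that order of roles, as p53 and its feedback regulators, arrest and growth control, apoptosis and survival, and repair, with the secreted factor gene Gdf15 and the ribosomal-protein-like gene Rps27l set apart.

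Of the 30 members, 7 were higher in knockout libraries, 0 were lower, and 23 did not pass the test (edgeR quasi-likelihood test, Benjamini-Hochberg adjusted p under 0.05 over all 13540 tested genes). Over all tested genes, 5.53% were called higher and 4.02% lower. All 30 members passed the filter on low counts. The 7 were Cdkn1a, Ccng1 and Zmat3 of the arrest class and Tnfrsf10b, Eda2r, Aen and Phlda3 of the apoptosis class. At an unadjusted p under 0.05 in edgeR, 12 members were higher and 0 lower. The share of all tested genes at that level is not given here. DESeq2 called 8 members higher and 0 lower, and 1104 of all 13540 genes higher. Limma voom with sample weights called 9 members higher and 0 lower, and 1186 of all 13540 genes higher. The CPM values of the groups (read counts divided by library size, with sizes scaled by TMM factors) did not overlap for 8 members, each higher in knockout, against 9.7% of all tested genes on that side and 7.9% on the other. The log2 fold change had a median of 0.54 over the members and -0.027 over all tested genes. A positive value was held by 23 members (22 with library size or upper quartile scaling) and by 6488 of all 13540 tested genes.

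**Figure D1:**
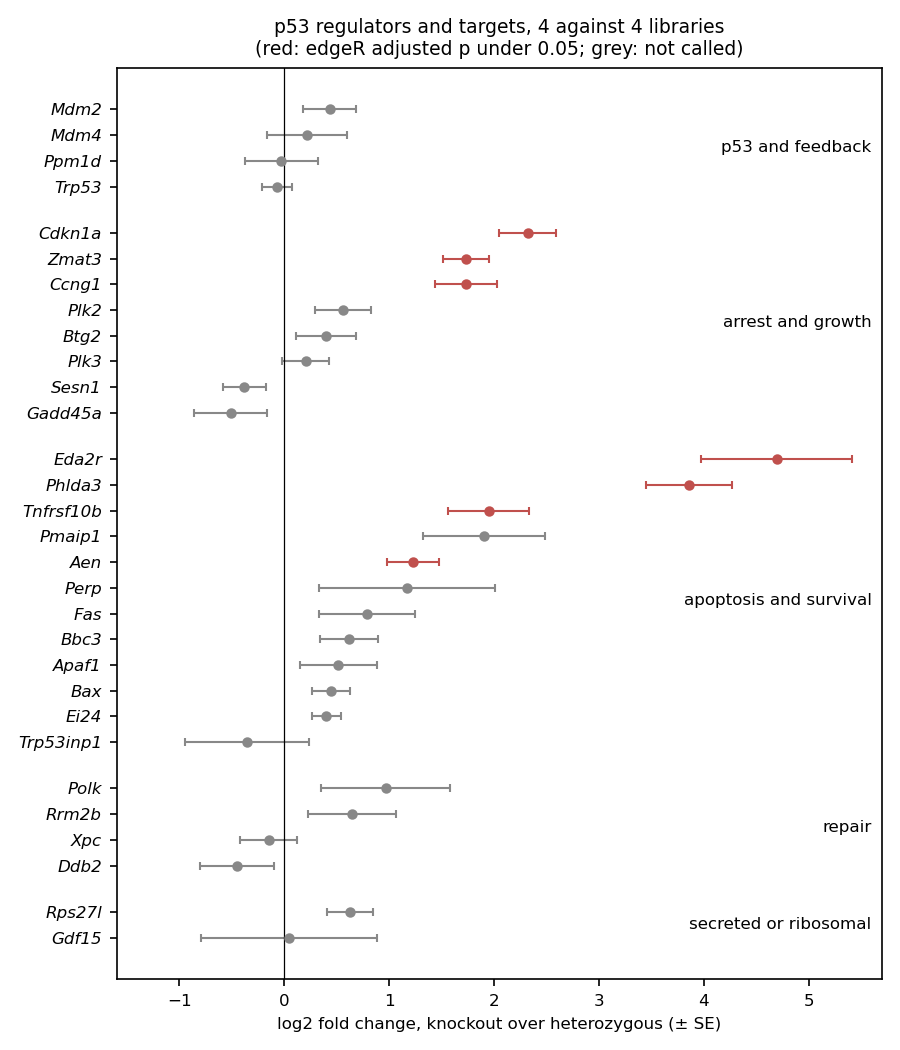
Log2 fold change of each of the 30 members, knockout over heterozygous (x axis, with 1 standard error on each side), grouped by role from top to bottom and ordered by size within a role; 4 libraries a group. The 7 red points passed the edgeR test at an adjusted p under 0.05 and lie in the arrest and apoptosis classes, from 1.23 for Aen to 4.70 for Eda2r; the 23 grey points did not.

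Library depth ran from 9.11 to 35.9 M counts, and groups overlapped in depth. Flvcr2, listed under its older symbol Mfsd7c, was at 427 ± 124 CPM in the heterozygotes and 301 ± 73.6 CPM in the knockouts (SD, n = 4 each) and was not called (edgeR adjusted p = 0.209), so it does not check the genotype labels. Of 10 endothelial markers none was at 0 in any library, and their summed level was 9225 to 15842 CPM in the heterozygotes and 11188 to 14309 CPM in the knockouts. By edgeR 1 of the 10 was higher and 0 lower (at an unadjusted p under 0.05, 3 higher and 1 lower), by DESeq2 3 and 1, and by limma voom 3 and 0. Markers of other cells tended to be lower in knockout libraries. By edgeR, 7 of 15 neuron, 4 of 11 radial glia and 2 of 9 pericyte and smooth muscle genes were called lower. So were 1 of 12 microglia and macrophage and 2 of 5 erythroid genes. At an unadjusted p under 0.05 in edgeR, 14, 6, 5, 7 and 3 genes of these lists were lower, in that order. DESeq2 called 10, 6, 4, 4 and 2 lower, and limma voom 9, 5, 5, 1 and 2. Over all 13540 genes DESeq2 made 2221 calls, 1104 of them higher, and limma voom 2266, 1186 of them higher. Of 7 fibroblast genes, 0 were called (1 at an unadjusted p under 0.05; 1 in DESeq2, 2 in limma voom). Summed levels were 324 to 1953 and 103 to 322 CPM for neurons, 1344 to 1478 and 1320.1 to 1571 for radial glia, 174 to 277 and 22.9 to 172 for pericytes, 515 to 1525 and 136 to 888 for microglia, 237 to 611 and 19.3 to 52.0 for erythroid cells and 222 to 417 and 107 to 607 for fibroblasts, heterozygous range first. The radial glia, microglia and fibroblast sums overlapped between genotypes. The mean log2 CPM of the radial glia list did not, at 4.07 to 5.57 in the heterozygotes and 1.65 to 3.93 in the knockouts. The means of the neuron, microglia and fibroblast lists overlapped. No marker was at 0 in all 8 libraries. Heterozygous 2 and knockout 1 had at most 1 count of Xist and 331 and 914 counts of the Y-linked gene Ddx3y, and heterozygous 3 and 4 had 28 and 56 counts of it beside high Xist. In bulk RNA, fewer cells of a type and less RNA per cell cannot be told apart. With library size alone in place of TMM factors, the log2 fold change over all genes had a median of -0.15, and 42.6% of all calls were rises in knockout, where TMM gave 57.9%; 7 members were called higher under either scaling, and under upper quartile and DESeq2 size factor scaling.

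Transcripts of p53 itself and of its feedback regulators did not pass the test. Trp53 was at 249, 268, 254 and 219 CPM in heterozygous libraries 1 to 4 and at 224, 273, 191 and 254 CPM in knockout libraries 1 to 4. The 2 ranges overlapped almost fully, and the log2 fold change was -0.072 ± 0.15 (SE; edgeR adjusted p = 0.796). Mdm2, the ligase that marks p53 for destruction and is also a p53 target, was at 30.7, 28.6, 35.6 and 28.8 CPM and 40.9, 32.5, 28.5 and 64.98 CPM. Knockout 4 was well above the other 7 libraries, while knockout 3 was level with the lowest heterozygous libraries. Its log2 fold change was 0.43 ± 0.25 (edgeR adjusted p = 0.313), and 0.14 without knockout 4. Mdm4, the partner of Mdm2 that blocks the activating domain of p53, was at 8.26, 6.16, 9.26 and 11.1 CPM and 6.90, 7.75, 18.2 and 7.62 CPM, where knockout 3 stood apart and the other 3 knockout libraries lay within the heterozygous range. Ppm1d, the phosphatase Wip1 that damps p53 and its upstream kinases, was at 14.1, 34.9, 21.4 and 11.3 CPM and 17.7, 15.5, 26.3 and 20.5 CPM, with every knockout library inside the heterozygous range. Of these 4 genes 0 had an unadjusted p under 0.05 in edgeR, and 0 were called by DESeq2 or limma voom.

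Cdkn1a, which encodes the cyclin-dependent kinase inhibitor p21, had the largest change of the arrest class. The gene lies at chr17:29090979-29100722 of GRCm38 (Entrez 12575). Its level was 158, 255, 306 and 390.1 CPM in heterozygous libraries 1 to 4 and 1829.9, 1088, 1405 and 1214 CPM in knockout libraries 1 to 4. Every knockout library was above every heterozygous one, and the rise was 4.99-fold (log2 fold change 2.32 ± 0.27; edgeR adjusted p = 0.00127). Zmat3, a zinc finger protein that binds RNA (chr3:32334792-32365665), went from 6.84, 7.33, 7.47 and 8.66 CPM to 27.8, 21.3, 24.4 and 27.5 CPM, with the smallest SD relative to the mean of the called members in both groups. It rose 3.33-fold (log2 fold change 1.73 ± 0.22; edgeR adjusted p = 0.00191). Ccng1, the gene of cyclin G1, which works with a phosphatase on Mdm2 (chr11:40748552-40755309), went from 24.6, 34.3, 23.3 and 33.5 CPM to 123, 62.3, 60.8 and 137 CPM. Knockout 1 and 4 were about level and well above knockout 2 and 3, which were still above all heterozygous libraries. The rise was 3.32-fold (log2 fold change 1.73 ± 0.29; edgeR adjusted p = 0.00609). When each of the 8 libraries was left out in turn, these 3 genes always passed, with log2 fold changes of 2.13 to 2.53 for Cdkn1a, 1.69 to 1.81 for Zmat3 and 1.51 to 1.91 for Ccng1.

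The other 5 arrest and growth genes did not pass the test. Plk2, a polo-like kinase gene, was at 145, 138, 291 and 263 CPM in the heterozygotes and at 296, 246, 270.3 and 421 CPM in the knockouts, and Btg2, an antiproliferative gene, at 111, 94.2, 172 and 233 CPM and 236, 132, 206 and 231 CPM. In both genes heterozygous 1 and 2 were below heterozygous 3 and 4, and the groups overlapped. Their log2 fold changes were 0.56 ± 0.27 and 0.40 ± 0.29. Plk3, a second polo-like kinase gene, was between 22.7 and 41.04 CPM over all 8 libraries (log2 fold change 0.21 ± 0.22). Sesn1, a sestrin that restrains growth signalling through mTORC1, was at 112, 132, 96.3 and 92.1 CPM and 72.5, 65.2, 118 and 76.5 CPM. Knockout 1, 2 and 4 were below all heterozygous libraries, but knockout 3 was not, and the log2 fold change was -0.38 ± 0.21 (edgeR adjusted p = 0.274). Gadd45a, a growth arrest gene induced by DNA damage, was at 5.98, 6.69, 8.28 and 8.05 CPM and 6.75, 4.62, 4.90 and 4.13 CPM (log2 fold change -0.51 ± 0.35; edgeR adjusted p = 0.392). Of its annotated exonic bases 19.1% overlap the gene E230016M11Rik on the opposite strand, so its count is uncertain. For Cdkn1a the overlapped share of exonic bases is 7.68%, and for Ccng1 and Zmat3 it is 0. Of the 50-base words of Cdkn1a 8.49% recur in transcripts of 584 other genes. For Zmat3 0.88% recur, in 217 other genes, and for Ccng1 0. No source used here says whether counting used strand.

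**Figure D2:**
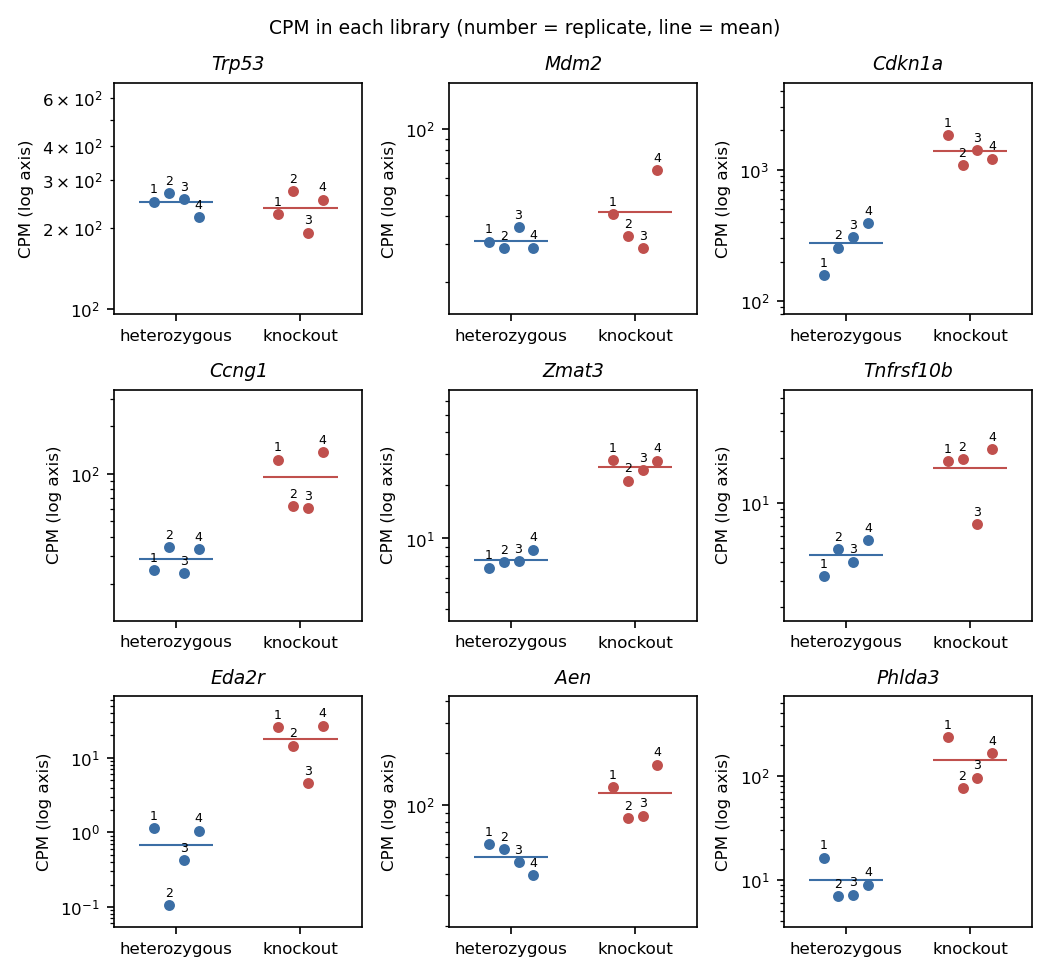
CPM (y axis, logarithmic) of Trp53, Mdm2 and the 7 called members in each of the 4 heterozygous (blue) and 4 knockout (red) libraries; numbers are replicates and lines are group means. Trp53 and Mdm2 overlap between the groups, and in the other 7 panels every knockout library is above every heterozygous one.

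The sequences upstream of Cdkn1a and Ccng1 are shown because these are the 2 called members whose RefSeq promoter window held a full p53 site. RefSeq promoter windows of 300 bases (GRCm38.p6, 250 before the transcript start and 50 after) were matched by symbol for 22 of the 30 members, 31 windows in all. They were searched on both strands for the p53 consensus decamer, a 10-base unit with the core CNNG that reads alike on either strand, and for a full site, a pair of decamers with 0 to 13 bases between them, at most 2 mismatches in all and no mismatch in either core. Below, bases of the decamers are in capitals, and the sequence runs 5′ to 3′ on the gene's strand and stops 31 bases before the transcript start.
Cdkn1a chr17:29090729-29090948 (+): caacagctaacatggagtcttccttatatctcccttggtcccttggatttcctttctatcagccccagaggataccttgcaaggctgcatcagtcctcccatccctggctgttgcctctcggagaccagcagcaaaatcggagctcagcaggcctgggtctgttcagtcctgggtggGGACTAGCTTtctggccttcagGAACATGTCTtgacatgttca
Ccng1 chr11:40755317-40755536 (-): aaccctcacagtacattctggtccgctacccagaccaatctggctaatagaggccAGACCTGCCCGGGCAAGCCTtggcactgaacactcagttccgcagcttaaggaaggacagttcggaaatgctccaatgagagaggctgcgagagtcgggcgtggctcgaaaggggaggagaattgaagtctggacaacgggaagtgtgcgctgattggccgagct
Both printed windows contain 0 annotated exon bases. Cdkn1a has a second RefSeq start downstream, whose window, chr17:29093519-29093818, held no decamer.

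A full site was found in 6 of the 31 windows, one window each for Cdkn1a, Ccng1, Gadd45a, Sesn1, Bax and Rps27l, against 4.09% of 32851 promoter windows of the same length. An exact decamer was found in 13 of the 31 windows, against 8.36% of all windows. Since the members were listed as p53 targets and regulators, these shares are no independent result. In Cdkn1a the 2 decamers matched without mismatch at a distance of 12 bases, where 0.0731% of all windows held a full site without mismatch at any distance from 0 to 13, and the downstream decamer also formed a site with the next 10 bases with 1 mismatch and no gap.
Cdkn1a chr17:29090906-29090937 (+): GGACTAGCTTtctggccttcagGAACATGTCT
Cdkn1a chr17:29090928-29090947 (+): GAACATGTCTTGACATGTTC
Ccng1 chr11:40755462-40755481 (-): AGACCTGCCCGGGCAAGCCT
Rps27l chr9:66946296-66946315 (+): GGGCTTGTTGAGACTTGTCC
Bax chr7:45467079-45467099 (-): AGGCAAGCTTtGAACTTGCGG
Sesn1 chr10:41887253-41887275 (+): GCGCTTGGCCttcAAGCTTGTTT
The Ccng1 and Rps27l sites have 1 mismatch, and the Bax and Sesn1 sites have 2. These sites lie upstream of a RefSeq start in both called and uncalled members. For Sesn1 (chr10:41810574-41908436) and Rps27l (chr9:66944624-66949522) that start is internal, and the site lies inside the gene span. Of the called members, 5 had a window and 2 of these had a full site, and of the uncalled members, 17 had a window and 4 of these had one. No decamer was found in the windows of Phlda3 and Eda2r. A match describes letters only, and a window without one says nothing about p53 at that gene.

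The apoptosis and survival class held the largest changes among the members. Phlda3, which encodes a repressor of the survival kinase Akt and lies at chr1:135766085-135769134 (Entrez 27280), was at 16.4, 7.01, 7.26 and 9.04 CPM in the heterozygotes and 235, 76.8, 96.4 and 165 CPM in knockout libraries. The lowest knockout library was well above the highest heterozygous one, and the rise was the second largest of the members (log2 fold change 3.86 ± 0.41; edgeR adjusted p = 9.17e-04). Eda2r, a receptor of the tumour necrosis factor family on the X chromosome at chrX:97333837-97377234 (Entrez 245527), was at 1.14, 0.106, 0.427 and 1.05 CPM and 25.7, 14.6, 4.56 and 27.1 CPM. Heterozygous libraries held 12, 1, 10 and 19 counts and knockout libraries 502, 168, 80 and 939, so the heterozygous level rests on few reads. Knockout 3 was the lowest of its group, yet above all heterozygous libraries. The fitted rise was 25.9-fold (log2 fold change 4.70 ± 0.72; edgeR adjusted p = 0.00424).

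Tnfrsf10b, the death receptor that binds TRAIL (chr14:69767472-69784411), was at 3.23, 4.89, 4.01 and 5.604 CPM in the heterozygotes and at 19.01, 19.6, 7.17 and 22.9 CPM in the knockouts. Knockout 3 was again the lowest and lay close to heterozygous 4, while the other 3 knockout libraries were within a narrow range well above it. The rise was 3.86-fold (log2 fold change 1.95 ± 0.39; edgeR adjusted p = 0.0125). Of the 50-base words of Tnfrsf10b 6.21% recur in transcripts of 673 other genes. Aen, a nuclease gene that takes part in the breakdown of DNA in dying cells (chr7:78895927-78911209), went from 59.4, 55.9, 46.8 and 39.2 CPM to 127, 83.97, 87.2 and 172 CPM, a 2.34-fold rise (log2 fold change 1.23 ± 0.24; edgeR adjusted p = 0.0125). As for Ccng1, knockout 1 and 4 were the highest. Leaving out any 1 library kept all 4 genes past the threshold, with log2 fold changes of 3.53 to 4.20, 4.40 to 5.03, 1.78 to 2.22 and 0.99 to 1.36 for Phlda3, Eda2r, Tnfrsf10b and Aen. Without heterozygous 2 and knockout 1, the libraries with Y-linked and almost no Xist transcripts, Tnfrsf10b and Aen kept log2 fold changes of 1.96 and 1.25 but missed the threshold (edgeR adjusted p = 0.0818 and 0.0787), while the other 5 passed. Tnfrsf10b was also not called without heterozygous 1 and knockout 2 together (edgeR adjusted p = 0.0568).

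The core genes of mitochondrial cell death did not pass the test. Pmaip1 (Noxa), a BH3-only protein that blocks the survival factor Mcl1, was at 1.80, 3.72, 3.20 and 1.22 CPM in the heterozygotes and at 15.2, 3.22, 13.2 and 5.57 CPM in the knockouts. Knockout 1 and 3 were far above the rest, and knockout 2 was within the heterozygous range. The log2 fold change was 1.90 ± 0.58, which edgeR did not call (adjusted p = 0.066) and DESeq2 did (adjusted p = 0.0134); without knockout 2 it was 2.19 and was called (edgeR adjusted p = 0.0361; range 0.0134 to 0.565 across the alternatives). Bbc3 (Puma), another BH3-only protein, was at 14.1, 12.2, 12.8 and 10.99 CPM and 25.8, 16.4, 11.9 and 22.4 CPM, with 3 knockout libraries above all heterozygous ones and knockout 3 within the heterozygous range (log2 fold change 0.61 ± 0.28; edgeR adjusted p = 0.193). Bax, which forms pores in the outer mitochondrial membrane, was at 175, 110.0, 103 and 132 CPM and 188, 181, 150.4 and 187 CPM. Heterozygous 1 was the only heterozygous library inside the knockout range (log2 fold change 0.44 ± 0.18; edgeR adjusted p = 0.154), and without it Bax was called at a log2 fold change of 0.62 (edgeR adjusted p = 0.0473; limma voom with all libraries 0.0317; range 0.0317 to 0.842 across the alternatives). Of the exonic bases of Bax 12.2% overlap the gene Gm45808. Ei24, a p53-induced gene of the endoplasmic reticulum, was at 127, 142, 134 and 143 CPM and 215, 157, 164 and 184 CPM, without overlap, but its log2 fold change of 0.40 ± 0.14 was not called by edgeR (adjusted p = 0.0973), while limma voom called it (adjusted p = 0.0288; range 0.0288 to 0.869 across the alternatives). Apaf1, the scaffold of the apoptosome, was at 9.59, 23.6, 8.07 and 12.9 CPM and 22.7, 11.9, 23.6 and 18.7 CPM, with heterozygous 2 near the highest knockout library (log2 fold change 0.52 ± 0.36).

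The remaining 3 genes of this class were scattered. Fas, the receptor of Fas ligand, was at 4.27, 6.90, 4.91 and 4.55 CPM and 9.45, 4.18, 16.3 and 5.54 CPM, with knockout 1 and 3 high and knockout 2 the lowest of all 8 libraries (log2 fold change 0.79 ± 0.46). Perp, a membrane protein of desmosomes and a p53 target, ran from 0.726 to 8.88 CPM in the heterozygotes and from 1.92 to 16.3 CPM in the knockouts (log2 fold change 1.17 ± 0.84). Trp53inp1, which encodes a nuclear protein that aids p53, was at 10.6, 10.3, 10.6 and 11.8 CPM and 14.8, 0.871, 6.89 and 11.1 CPM. Its heterozygous libraries were nearly equal, whereas knockout 2 held 10 counts (log2 fold change -0.36 ± 0.59; edgeR adjusted p = 0.75).

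**Figure D3:**
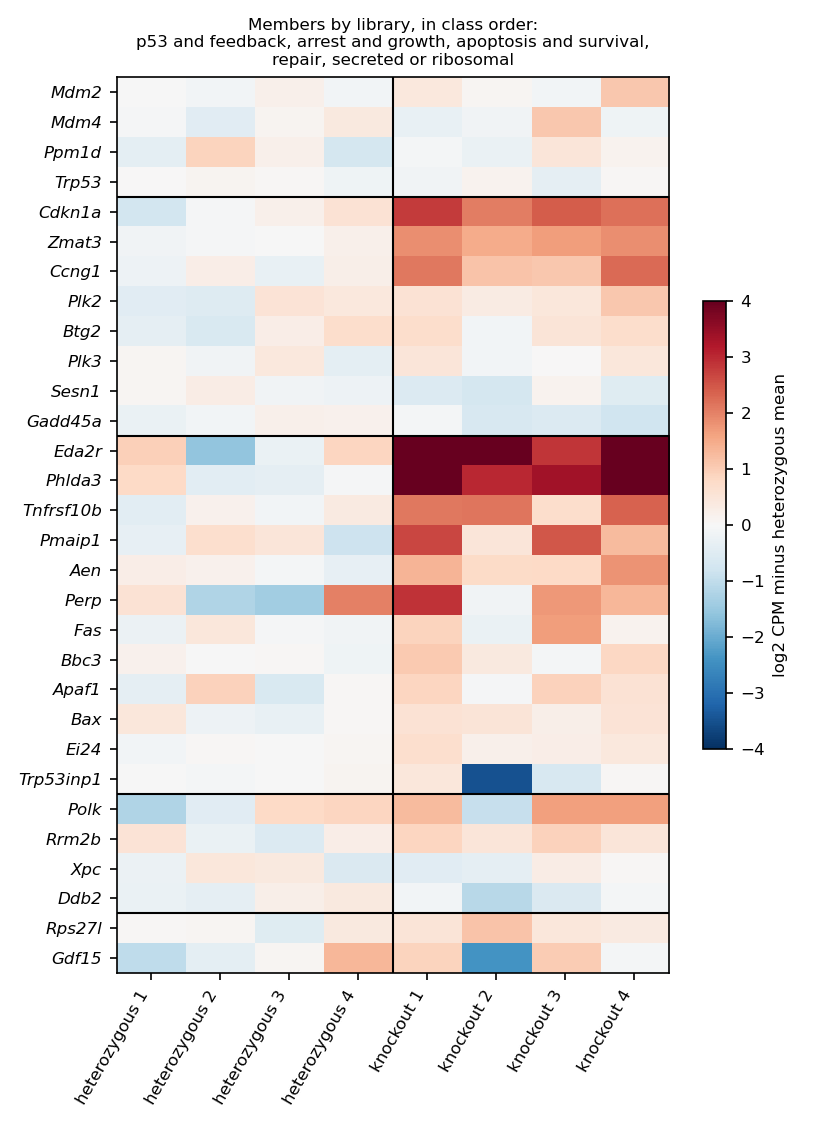
Log2 CPM of each member in each library minus the mean of the heterozygous libraries (colour, red higher and blue lower, with values beyond 4 in either direction drawn at 4); rows are in the class order given above the map and columns are the 8 libraries. The 7 called members are red in all 4 knockout columns, and the classes of p53 and feedback and of repair show no such block.

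The repair genes did not pass the test. Ddb2 and Xpc encode sensors of damaged bases in nucleotide excision repair. Xpc was at 26.02, 42.4, 40.2 and 20.5 CPM and 22.4, 23.95, 38.04 and 31.8 CPM, with every knockout library inside the heterozygous range, and Ddb2 at 7.69, 7.22, 10.97 and 12.3 CPM and 8.64, 4.27, 6.26 and 8.80 CPM. Their log2 fold changes were -0.15 ± 0.27 and -0.45 ± 0.35. Of the exonic bases of Ddb2 23.8% overlap Acp2. Polk, a polymerase that copies past lesions, was at 1.71, 2.97, 7.13 and 7.60 CPM and 9.97, 2.09, 13.1 and 13.04 CPM (log2 fold change 0.97 ± 0.61), and Rrm2b, the p53-induced subunit of ribonucleotide reductase, at 5.41, 2.97, 2.43 and 4.44 CPM and 6.64, 5.14, 6.95 and 5.14 CPM (log2 fold change 0.65 ± 0.42). In Polk the range within each group exceeded the difference between the group means. Of the 4 repair genes 0 had an unadjusted p under 0.05 in edgeR, and 0 were called by DESeq2 or limma voom.

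Gdf15, a secreted stress cytokine of the TGF-beta family that is also a known target of the stress factors ATF4 and CHOP, was close to the limit of detection. It was at 0.855, 1.38, 1.96 and 4.83 CPM in the heterozygotes and at 3.53, 0.261, 3.82 and 1.73 CPM in the knockouts, from 3 to 87 counts a library (log2 fold change 0.043 ± 0.84; edgeR adjusted p = 0.981). The standard error was far larger than the difference, so no direction can be given. Rps27l, a ribosomal protein related to Rps27 and known to bind Mdm2, was at 165, 170.2, 114 and 211 CPM and 233, 355, 222 and 208 CPM. The groups overlapped through heterozygous 4 and knockout 4, and the log2 fold change was 0.63 ± 0.22 (edgeR adjusted p = 0.104). Of its 50-base words 11.2% also occur in transcripts of 4 other genes, Gm14706, Gm35106, Gm45445 and Gm46542, and reads of 50 bases from them cannot be assigned.

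The classes were set side by side by their counts, and no difference between classes was tested. In arrest and growth 3 of 8 genes were higher (median log2 fold change 0.48), and in apoptosis and survival 4 of 12 (median 0.98). The p53 and feedback class had 0 of 4 called and a median of 0.094, repair 0 of 4 and 0.25, and the pair of Gdf15 and Rps27l 0 of 2 and 0.33. Over all tested genes 5.53% were called higher, and 9.55% were called in either direction. Mean log2 CPM of the apoptosis class was 3.48, 3.25, 3.11 and 3.50 in heterozygous libraries 1 to 4 and 5.29, 4.01, 4.53 and 4.90 in knockout libraries 1 to 4. For the arrest class it was 5.39, 5.53, 5.79 and 5.85 against 6.63, 6.06, 6.36 and 6.55. In both classes the genotypes did not overlap, and knockout 2 was the lowest knockout library in each. These means include the called members, so they are no separate result from the calls. By sign, 6 of 8 arrest genes and 11 of 12 apoptosis genes had a positive log2 fold change, with the called members included. Over all 13540 tested genes, 6488 had one. For the feedback class the values were 4.95, 5.17, 5.20 and 4.91 against 5.03, 5.01, 5.33 and 5.33, which overlapped, as did the repair class at 2.75 to 3.28 against 2.56 to 3.62. Among the 7 called members, the highest knockout library was replicate 4 for 4 genes and replicate 1 for 3, and the lowest was replicate 2 for 4 genes and replicate 3 for 3.

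**Figure D4:**
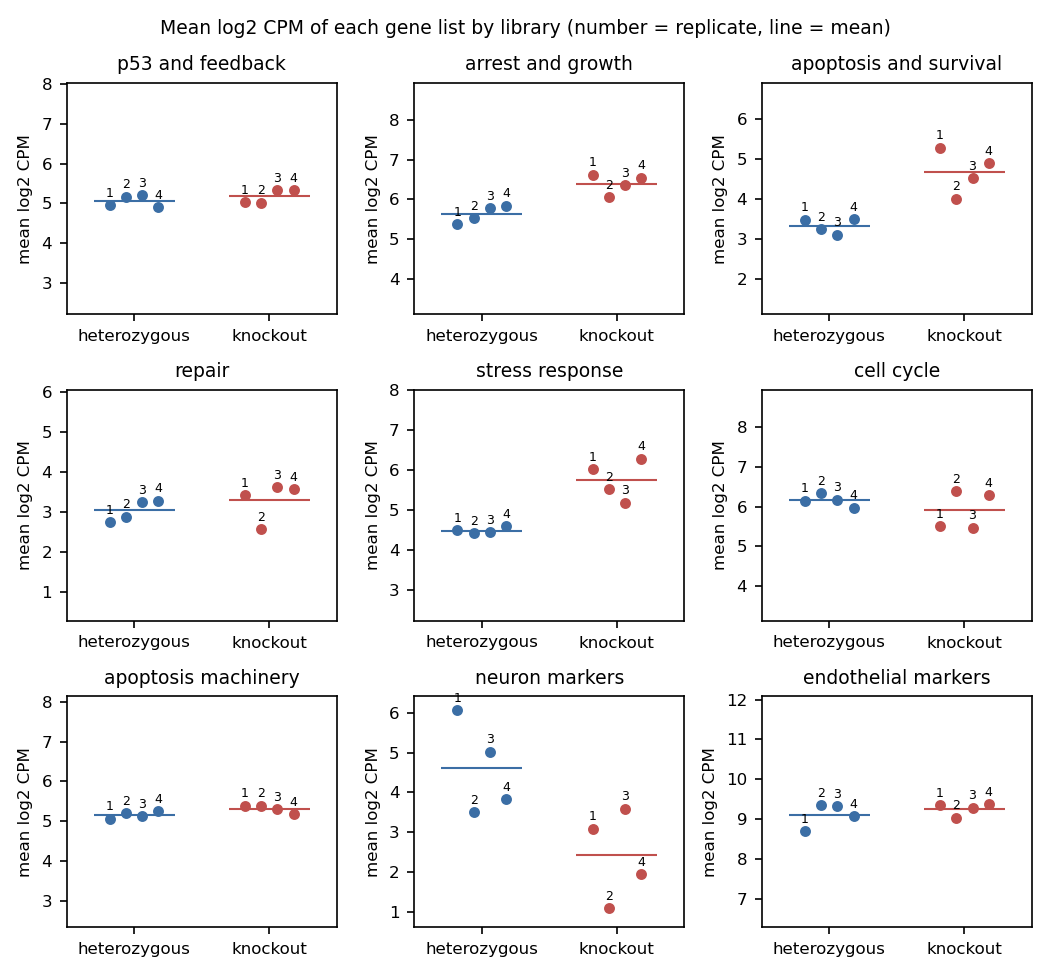
Mean log2 CPM of 9 gene lists in each library (blue heterozygous, red knockout; numbers are replicates, lines are group means; every panel spans the same number of log2 units). The arrest, apoptosis and stress response lists do not overlap between genotypes and are higher in knockout, with their called genes included in the means. The feedback, repair and cell cycle lists overlap, and the neuron markers are lower on average in knockout.

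The levels of other cells' transcripts moved with genotype, as given above, and the fits with these levels as covariates bear on the 7 calls. The neuron score is the mean log2 CPM of the neuron markers. It ran from 3.50 to 6.06 in the heterozygotes and from 1.09 to 3.59 in the knockouts. Only heterozygous 2, at 3.50, and knockout 3, at 3.59, overlapped. The other-cell score is the mean over the neuron, radial glia, pericyte, microglia and erythroid lists. That score ran from 4.14 to 4.995 in the heterozygotes and from 1.90 to 3.16 in the knockouts. With the neuron score in the model 3 members were called, Cdkn1a, Zmat3 and Phlda3, at log2 fold changes of 2.23, 1.73 and 4.64 (edgeR adjusted p = 0.0315, 0.0451 and 0.00698). Ccng1, Eda2r and Aen had 1.48, 4.76 and 1.31, which missed the threshold (edgeR adjusted p = 0.154, 0.0972 and 0.165), and Tnfrsf10b had 1.17 (edgeR adjusted p = 0.349). With the other-cell score, which does not overlap between genotypes, 0 members were called, and 0 of all genes (6 members had an unadjusted p under 0.05 in edgeR; DESeq2 and limma voom were not run with a covariate). There Cdkn1a, Zmat3, Phlda3 and Eda2r had log2 fold changes of 2.53 ± 0.66, 1.75 ± 0.56, 5.04 ± 0.93 and 4.14 ± 1.79 (SE), Ccng1 and Aen had 1.03 ± 0.71 and 0.85 ± 0.63, and Tnfrsf10b had 0.15 ± 0.83. Of the 7, Tnfrsf10b moved most, from 1.95 without a covariate. Genotype and the other-cell score cannot be told apart in these 8 libraries. The neuron score overlaps between genotypes only through heterozygous 2 and knockout 3. The 3 calls made with it therefore do not separate genotype from the level of neuron transcripts.

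**Figure D5:**
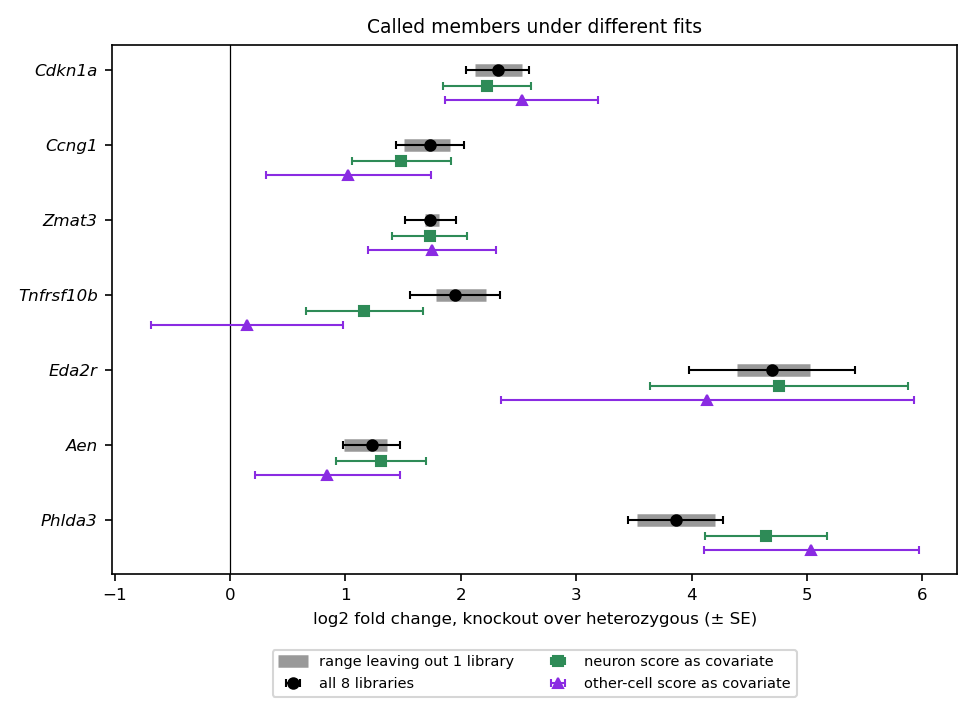
Log2 fold change (x axis, knockout over heterozygous, bars 1 standard error) of the 7 called members with all 8 libraries (black), with the neuron score (green squares) or the other-cell score (violet triangles) as a covariate, and the range over the 8 fits that left out 1 library (grey). With the other-cell score none of the 7 is called and the standard errors are wider, at 0.66 for Cdkn1a (2.53), 0.56 for Zmat3 (1.75) and 0.83 for Tnfrsf10b (0.15).

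Genes around the members were read from lists of the pathway. Of 18 genes acting upstream of p53, such as the kinases Atm and Chek2, 15 were tested and 0 called (2 lower at an unadjusted p under 0.05; 0 called by DESeq2 or limma voom), with a median log2 fold change of -0.09. Those with the highest CPM, which is not corrected for length, were the stress kinase Mapk14, at 89.6 ± 15.7 and 106 ± 29.5 CPM, and the ubiquitin ligase Cop1, listed as Rfwd2, at 80.03 ± 15.7 and 90.2 ± 23.4 CPM (SD, n = 4 each). Cdkn2a, whose product p19Arf restrains Mdm2, had 2 counts in heterozygous 3, 0 in the other 7 libraries, and was not tested.

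Of 28 further p53 targets, 27 were tested. By edgeR 4 were higher and 2 lower, where 5.53% and 4.02% of all tested genes were. By DESeq2 and by limma voom 8 were higher and 2 lower, where 1104 and 1186 of all 13540 genes were called higher. The median log2 fold change was 0.35. Mean log2 CPM of these targets overlapped between genotypes, at 3.53 to 3.92 in the heterozygotes and 3.42 to 4.59 in the knockouts. Trp53i11, a p53-inducible gene, showed a 2.75-fold rise, from 694 ± 163 to 1913 ± 574 CPM (edgeR adjusted p = 0.00601). Sesn2, a sestrin that ATF4 also induces, showed a 2.94-fold rise, from 20.4 ± 2.15 to 60.02 ± 31.9 CPM (edgeR adjusted p = 0.0198). Abhd4, a lipase gene, rose 1.84-fold (edgeR adjusted p = 0.0157). Pltp, the phospholipid transfer protein gene, was at 1046 ± 153 CPM in heterozygotes and, 2.60-fold lower, at 402 ± 103 CPM in knockouts (edgeR adjusted p = 0.00299). The other two calls, named after their values were seen, were Siva1 (1.59-fold higher) and Steap3 (2.31-fold lower). Trp53i11 and Pltp passed whichever of the 8 libraries was left out, Sesn2 in 5 (not without heterozygous 1, knockout 1 or knockout 4), Abhd4 in 6 (not without knockout 1 or 4), Siva1 in 2 (without heterozygous 1 or knockout 3) and Steap3 in 1 (without heterozygous 2), and log2 fold changes over those fits were 1.24 to 1.79 for Sesn2, 0.78 to 0.99 for Abhd4, 0.56 to 0.75 for Siva1 and -1.38 to -1.03 for Steap3.

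Genes that p21 is known to lower through the DREAM repressor complex, 22 genes of DNA replication and mitosis, showed 0 calls in edgeR (2 lower at an unadjusted p under 0.05; DESeq2 and limma voom each called 1 lower) and a median log2 fold change of -0.17. Those with the highest CPM were Mcm3, of the replicative helicase, at 200.2 ± 43.8 and 173 ± 41.6 CPM, and Cdk1, the mitotic kinase, at 152 ± 22.7 and 161 ± 56.04 CPM. The mean log2 CPM of this list ran from 5.97 to 6.34 in the heterozygotes. In knockout libraries 1 to 4 it was 5.51, 6.38, 5.47 and 6.29, so knockout 1 and 3 were low and knockout 2 and 4 were not. Cdkn1a was above every heterozygous library in all 4, at 1829.9, 1088, 1405 and 1214 CPM, and was highest in knockout 1 and 3. A relation between Cdkn1a and this list was not tested.

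Of 18 genes for the intrinsic apoptosis machinery outside the members that were tested, 4 were higher and 1 lower by edgeR (DESeq2 4 and 1, limma voom 5 and 1), with a median log2 fold change of 0.31. Bok, a pore-forming relative of Bax, showed a 1.81-fold rise, from 315 ± 55.3 to 570.0 ± 97.8 CPM (edgeR adjusted p = 0.0145). The BH3-only gene Bmf was at 18.3 ± 5.26 CPM in heterozygotes and, 3.06-fold lower, at 5.997 ± 1.30 CPM in knockouts (edgeR adjusted p = 0.0108). Diablo, an inhibitor of the caspase inhibitor Xiap, rose 1.68-fold, and Bcl2l11 (Bim), named after its value was seen, rose 1.76-fold. Bok and Bmf passed whichever of the 8 libraries was left out, Bcl2l11 in 2 (without heterozygous 3 or knockout 2) and Diablo in 1 (without knockout 3), with log2 fold changes of 0.70 to 1.03 for Bcl2l11 and 0.55 to 0.86 for Diablo.

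Several members, among them Pmaip1, Bbc3, Tnfrsf10b and Gdf15, are also known targets of ATF4 or CHOP in the integrated stress response, and genes of that response were higher in the same libraries. Of 18 genes 10 were higher and 0 lower in edgeR, with a median log2 fold change of 1.23 (12 higher and 0 lower at an unadjusted p under 0.05; DESeq2 called 10 and 0, limma voom 11 and 0). Eif4ebp1, Mthfd2, Asns and Trib3 had the smallest p and log2 fold changes of 2.40 ± 0.23, 3.32 ± 0.36, 3.07 ± 0.35 and 4.06 ± 0.52. Atf4, named after its value was seen, was at 59.6, 65.2, 51.1 and 71.3 CPM in the heterozygotes and at 177, 181, 95.5 and 261 CPM in the knockouts, with knockout 3 the lowest of its group. Ddit3, the gene of CHOP, likewise named after its value was seen, was at 17.7, 18.4, 17.8 and 19.2 CPM and 31.5, 26.4, 16.5 and 39.04 CPM and was not called (log2 fold change 0.64 ± 0.26; edgeR adjusted p = 0.15). Summed CPM of this list overlapped between genotypes, at 2666 to 4741 in the heterozygotes and 4068 to 5624 in the knockouts. Mean log2 CPM of this list was 6.02, 5.52, 5.18 and 6.28 in knockout libraries 1 to 4, with knockout 3 lowest. Knockout 3 was also the lowest knockout library for Ccng1, Tnfrsf10b, Eda2r and Bbc3, whereas knockout 2 was for Cdkn1a, Zmat3, Aen, Phlda3, Pmaip1 and Gdf15. The part of this response in the members' levels was not tested.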

How the data were processed

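The authors deposited raw counts per gene symbol for 8 libraries. Per the labels' protocols, cDNA synthesis used SMART-Seq v4, library preparation Nextera XT, and sequencing single-end 50-base reads. The submitters' processing notes name TopHat2 0.7, Cufflinks 2.2.1 and the build mm10; how reads were counted, and whether by strand, is not stated there. From the counts, edgeR 4.0.16 in R 4.3.3 kept 13540 of 24421 rows with filterByExpr (minimum count 10, minimum total 15; 99.9% of counts), scaled libraries with TMM factors and tested knockout against heterozygous libraries by a robust quasi-likelihood F-test without covariates, Benjamini-Hochberg adjusted over all tested genes. The standard error is the log2 fold change divided by the square root of F. Log2 CPM used a prior count of 2. The test was also run on simulated counts, which held no difference in cell make-up between groups, and its outcome there is not given here. Coordinates and promoters are RefSeq GRCm38.p6, and exons and transcripts GENCODE M21, both the same build as mm10. Alternatives used DESeq2 1.42.0 and limma 3.58.1. Members, lists, tests and alternatives were chosen with earlier results of these data known, and nothing here is independent of them. All members were named, and from each further list up to 4 calls in order of p, or without calls the 2 with the highest CPM. The values of 1 gene that this rule names are not reported here. No pair of same-genotype libraries matched within sampling noise (lowest chi-square per degree of freedom 28.9). Libraries held 9.11 to 35.9 M counts.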

Additional observations from a re-analysis of the deposited data

Results flagged for a closer look

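Among 60 groups of 4 libraries (30 members in 2 genotypes), 2 held a library whose gap to the nearest other exceeded Dixon's 95% critical value, where chance alone flags about 1 in 20 groups. Mdm4 was at 18.2 CPM in knockout 3 against 6.90 to 7.75 CPM in the other 3 knockout libraries (gap over range 0.92). Rps27l was at 355 CPM in knockout 2 against 208 to 233 CPM in the other 3 (gap over range 0.83). Neither gene was called, and their log2 fold changes ran -0.22 to 0.37 and 0.43 to 0.77 as each library was left out in turn.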

How the results depend on the processing

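The count of members higher in knockout was 7 with RLE (DESeq2 size factors), upper quartile or library size scaling, without a low-count filter, with a filter of 1 CPM in every library, with a non-robust dispersion and with the replicate block, and 7 to 8 when single libraries were left out. With the 1 CPM filter Eda2r, Perp, Trp53inp1 and Gdf15 were not tested and Pmaip1 was called. It was 5 at an adjusted p under 0.01, 5 without the Y-linked libraries and 6 without heterozygous 1 and knockout 2. It moved to 3 with the neuron score covariate and to 0 with the other-cell score covariate; in the latter the median standard error over the members was 0.79, against 0.32, and the median log2 fold change 0.62, against 0.54. The count of members lower was 0 in every setting run. Replicate numbers did not pair the libraries (correlations of deviations of same-numbered libraries 0.058, 0.21, -0.046 and 0.021; 1 of 4 heterozygous libraries correlated best with its own number), and with the replicate block 7 members and 868 of all genes were called, against 1293. Calls over all genes were 2221 in DESeq2, 2266 in limma voom, 108 with the neuron score, 0 with the other-cell score, 300 without the Y-linked libraries, 842 without heterozygous 1 and knockout 2, and 579 to 1347 leaving out 1 library (579, 625, 787 and 790.0 without knockout 1, knockout 4, heterozygous 1 and heterozygous 3).

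Median log2 fold changes of lists moved for p53 and feedback genes (from 0.094 to 0.33 without the Y-linked libraries; -0.073 to 0.22 leaving out 1 library), the upstream genes (from -0.090 to -0.21 with library size scaling), the apoptosis machinery (from 0.31 to 0.19 with library size scaling and 0.19 without heterozygous 1 and knockout 2; 0.25 to 0.45 leaving out 1 library) and the stress response (1.23 with all libraries, 0.86 to 1.45 leaving out 1). Library size scaling moved the median of all genes from -0.027 to -0.15, a shift common to all lists. For the fits with fewer libraries the cause was not tested.

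Signs changed for 8 members, none of them called under any setting run. Gdf15 was at -0.050 with library size scaling, -0.032 with upper quartile scaling, -0.15 with the replicate block and -0.38 without the Y-linked libraries, and at -0.28 to 0.73 leaving out 1 library. Mdm4 was at -0.077 in limma voom (-0.22 to 0.37 leaving out 1 library). Ppm1d was at 0.091 with the replicate block and 0.42 without the Y-linked libraries (-0.22 to 0.36 leaving out 1 library). Trp53inp1 was at 0.19 with the neuron score, 0.53 with the other-cell score and 0.0017 without heterozygous 1 and knockout 2 (-0.76 to 0.015 leaving out 1 library). Mdm2 and Sesn1 were at -0.38 and 0.22 with the other-cell score. Trp53 and Xpc were at 0.0028 and 0.12 without the Y-linked libraries (-0.15 to 0.029 and -0.31 to 0.0067 leaving out 1 library). Over all settings, 580 values of single members kept their direction and their side of the threshold, 14 lost and 6 gained a call, and 26 changed sign. Depth limits Gadd45a, Pmaip1, Fas, Perp, Polk, Ddb2, Rrm2b and Gdf15, which averaged under 10 CPM in each genotype.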

Other observations

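Knockout 2 had the lowest level of all 8 libraries for Trp53inp1 (10 counts), Gdf15 (3 counts), Ddb2 (49 counts) and Fas (48 counts), but not for Cdkn1a, Phlda3 or Tnfrsf10b, where it was above every heterozygous library. Its total of 12.1 M counts was the lowest of the knockout group. Knockout 3 had the highest Mdm4 (18.2 CPM), Fas (16.3 CPM) and Sesn1 (118 CPM) of the knockout group and the lowest Eda2r, Tnfrsf10b, Ccng1 and Bbc3. These values were noticed after the data were seen and are given without a test.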
